A study of Mus musculus with 2 samples.

Results

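The cytosolic ribosomal protein genes were taken as the protein-coding genes of mm9 (GENCODE vM1) whose symbol is Rpl or Rps followed by a number with an optional a, x, y or l, together with *Rpsa*, *Rplp0*, *Rplp1* and *Rplp2*, and without the *Rps6k* kinase genes. The rule found 80 genes of 22359 protein-coding genes, 48 of the large and 32 of the small ribosomal subunit. It used gene names and no measured value.

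The study asked where the zinc finger protein Zfp322a binds in the genome of mouse ES cells. Chromatin of the E14 mouse ES cell line, whose strain the labels give as C57BL/6, was precipitated with anti-ZNF322 antibody in 1 library and with rabbit IgG, a control antibody with no intended target, in the other. Both came from this single cell line, and the labels name no treatment or genetic change in either. There was 1 library for each antibody, so no value below has a replicate check, every test compares these libraries and not conditions, and every interval covers counting error only. Reads of immunoprecipitated chromatin measure no transcripts, so the labelled cell type could not be set against marker genes here.

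Cytosolic ribosomes translate nearly all cellular mRNA, and each contains a single copy of most ribosomal proteins, with several copies of the stalk proteins Rplp1 and Rplp2. The genes of these proteins are scattered over the chromosomes, are transcribed at high rates in dividing cells such as ES cells, and typically start within a run of pyrimidines (C or T) in a CpG-rich promoter. Transcripts that begin with such a run, known as 5′ terminal oligopyrimidine (TOP) mRNAs, are translated under the control of mTOR. Many retrotransposed copies of these transcripts, the processed pseudogenes, lie elsewhere in the genome and lack the promoter of the parent gene.

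The sequence around the transcription start site (TSS) is shown for 5 of the members called below and for *Rpl14* and *Rpl29*, whose start sites lay in or beside long pyrimidine runs, with the muscle paralog *Rpl3l* for contrast. Each line runs from 15 bases before the annotated TSS to 14 bases after it on the strand of the gene, read from the mm9 genome, and the longest pyrimidine run is in capitals.
Rplp0, chr5:116009461-116009490 (+): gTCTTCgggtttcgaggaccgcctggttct
Rplp1, chr9:61762331-61762360 (−): caggcgtatatgaTCTTTTCCTCagctgcc
Rpl3, chr15:79913822-79913851 (−): cacgTTCgcacgctcagggggcggagccat
Rpl4, chr9:64021179-64021208 (+): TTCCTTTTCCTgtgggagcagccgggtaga
Rps19, chr7:25669375-25669404 (+): gccagacacacaaggCTCaaatgaaggccg
Rpl14, chr9:120480619-120480648 (+): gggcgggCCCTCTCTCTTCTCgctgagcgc
Rpl29, chr9:106331770-106331799 (+): gaaCCTTTTTTCTCCgccagcagtgaggga
Rpl3l, chr17:24864759-24864788 (+): tgttctagctctgtcatttgaCCTCTggtg
A run of at least 8 pyrimidines was present in this 30-base stretch, on the strand of the gene, at 23 of the 80 members (28.8%) and at 11.5% of all protein-coding genes. The annotated TSS itself was a C followed by pyrimidines, with 5 or more in all, at 3 members (3.75%, against 2.07% of all genes). The run of *Rplp1* spanned the annotated start, whereas that of *Rpl29* ended at the base before it.

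The 150 bases just upstream of the TSS are shown for *Rpl3*, *Rpl4*, *Rplp0*, *Rplp1* and *Rps19*, which were called and whose upstream stretch held no annotated exon. *Rpl29*, *Rpl34* and *Rps6* are added because they lay in regions that the authors deposited, and *Rpl3l* as a member with no excess of Zfp322a reads. Capitals mark the searched motifs named after the sequences.
Rpl3, chr15:79913837-79913986 (−): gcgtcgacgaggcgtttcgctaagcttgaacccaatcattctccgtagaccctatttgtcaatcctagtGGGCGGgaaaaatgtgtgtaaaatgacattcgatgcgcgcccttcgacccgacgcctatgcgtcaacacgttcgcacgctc
Rpl4, chr9:64021044-64021193 (+): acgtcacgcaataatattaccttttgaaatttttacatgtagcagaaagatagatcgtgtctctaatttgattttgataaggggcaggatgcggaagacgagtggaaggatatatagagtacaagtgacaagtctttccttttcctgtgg
Rplp0, chr5:116009326-116009475 (+): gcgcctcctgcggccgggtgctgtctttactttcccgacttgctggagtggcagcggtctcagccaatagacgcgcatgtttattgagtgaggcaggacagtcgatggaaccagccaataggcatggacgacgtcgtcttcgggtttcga
Rplp1, chr9:61762346-61762495 (−): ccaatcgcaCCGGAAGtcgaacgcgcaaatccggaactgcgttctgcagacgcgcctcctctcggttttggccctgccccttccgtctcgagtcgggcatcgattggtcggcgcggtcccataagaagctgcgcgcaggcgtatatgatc
Rps19, chr7:25669240-25669389 (+): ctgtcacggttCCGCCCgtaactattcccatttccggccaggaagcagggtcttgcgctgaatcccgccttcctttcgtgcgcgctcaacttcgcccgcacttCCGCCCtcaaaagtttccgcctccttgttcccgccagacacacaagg
Rpl29, chr9:106331635-106331784 (+): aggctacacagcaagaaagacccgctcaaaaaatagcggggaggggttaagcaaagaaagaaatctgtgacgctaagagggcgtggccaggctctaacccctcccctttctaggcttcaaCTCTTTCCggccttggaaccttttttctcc
Rpl34, chr3:130433317-130433466 (−): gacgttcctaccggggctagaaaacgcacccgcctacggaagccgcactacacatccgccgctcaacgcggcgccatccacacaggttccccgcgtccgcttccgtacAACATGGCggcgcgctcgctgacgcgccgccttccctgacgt
Rps6, chr4:86503317-86503466 (−): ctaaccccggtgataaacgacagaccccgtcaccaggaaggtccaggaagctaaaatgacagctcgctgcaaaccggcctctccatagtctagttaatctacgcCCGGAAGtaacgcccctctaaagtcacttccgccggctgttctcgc
Rpl3l, chr17:24864624-24864773 (+): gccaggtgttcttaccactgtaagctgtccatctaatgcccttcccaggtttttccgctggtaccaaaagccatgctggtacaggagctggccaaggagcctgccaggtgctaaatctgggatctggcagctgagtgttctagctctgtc
The capitals are a GC box (GGGCGG) in *Rpl3*, an ETS core (CCGGAAG) in *Rplp1* and *Rps6*, GC boxes on the opposite strand (CCGCCC) in *Rps19*, CTCTTTCC in *Rpl29* and a YY1 core (AANATGGC, N being any base) in *Rpl34*. The stretches of *Rpl4*, *Rplp0* and *Rpl3l* held none of the searched motifs. The 150 bases of *Rpl3l* held 1 CpG, against 17 in *Rpl3*, 5 in *Rpl4*, 13 in *Rplp0*, 20 in *Rplp1*, 14 in *Rps19*, 5 in *Rpl29*, 23 in *Rpl34* and 11 in *Rps6*.

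In the Zfp322a library 5187475 reads were mapped and in the IgG library 4843481, of which 4151151 and 3877802 had a mapping quality of at least 25 and were counted. At that cut-off the libraries did not cover the chromosomes alike. The whole-chromosome ratio of Zfp322a to IgG, per library total, was 0.760 on chromosome 8 and 1.32 on the X chromosome, and between 0.843 and 1.15 on the other chromosomes that carry members. Folds scaled by the totals of the gene's own chromosome are therefore given wherever this matters.

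Reads were counted from 1000 bp before to 1000 bp after each TSS, and the fold is the ratio of Zfp322a to IgG reads, each per library total. Zfp322a reads were in excess over IgG at most ribosomal protein promoters, by a modest factor. The 79 members with at least 10 reads in the libraries together held 9 to 43 Zfp322a reads (median 24) and 2 to 26 IgG reads (median 12), where evenly spread reads would give 3.13 and 2.92. Both libraries were therefore enriched at these promoters, and Zfp322a more so. *Rpl10l*, a retrotransposed paralog of *Rpl10*, had 4 and 3 reads and did not reach the minimum.

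The Zfp322a count was the higher of the pair at 70 of the 79 members after scaling by library totals. Most tested genes shared this direction: the fold was under 1 at 4156 of all 15983 and at 9 of the 79 members. The 95% interval of the fold lay above 1 at 30 of the 79 members, against 16.4% of all tested genes. The median fold of the 79 members was 1.61, with 0.5 reads added to each count. Over all 15983 protein-coding genes with at least 10 reads the median was 1.36. Promoters in general thus carried more reads in the Zfp322a library, and the median of the members was 1.19 times that of all tested genes. A fold of at least 2 was reached at 31 of 79 members (39.2%), against 23.9% of all tested genes. Of the 79 members, 57 lay above the median of all tested genes.

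**Figure D1:**
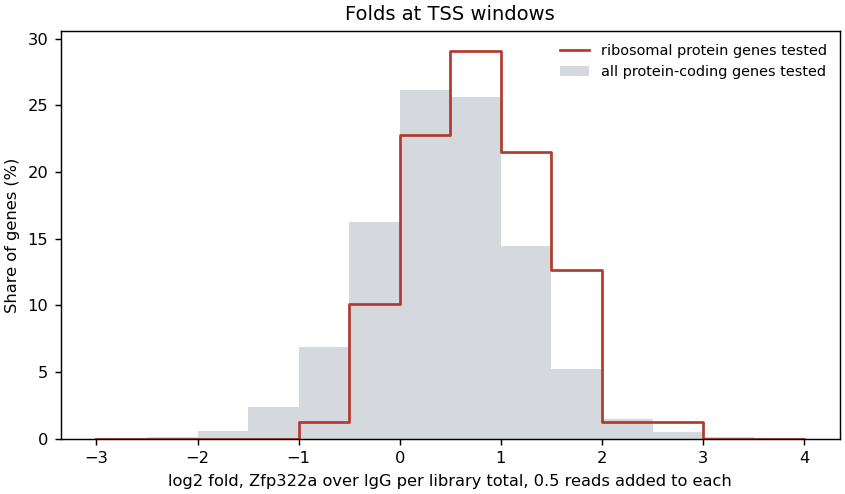
Share of tested genes (vertical axis, %) by log2 fold of Zfp322a over IgG at the TSS window (horizontal axis, bins of 0.5, the end bins with all values beyond them), with grey bars for the 15983 protein-coding genes tested and a red line for the 79 ribosomal protein genes. The red line lies above the bars between 0.5 and 2, and below them under 0.5.

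The two-sided exact conditional binomial test was used with Benjamini-Hochberg adjustment over all 15983 genes. An adjusted p under 0.05 with more Zfp322a reads was found at 6 of 79 members (7.59%), against 4.82% of all tested genes. Among genes with at least 20 reads it was found at 10 of 73 members, against 8.63% of all such genes. None was called lower, and none had an unadjusted p under 0.05 in that direction; 10 genes were called lower among all those tested. An unadjusted p under 0.05 with more Zfp322a reads was found at 30 of the 79 members, against 17.6% of all tested genes. At the median of 36 reads in the libraries together, a fold of 3.27 was needed to be called. When all protein-coding TSS windows replaced library totals as the scale, which moved the mean of all genes by 0.50 on the log2 scale, none of the 79 was called (0.469% of all genes), 10 had an unadjusted p under 0.05 (5.2% of all), 12 had a fold of at least 2 (8.68% of all) and the median fold was 1.14, against 0.960 over all genes. Scaled within twentieths of GC content, none was called (0.363% of all), 9 had an unadjusted p under 0.05 (4.89% of all) and 12 a fold of at least 2 (8.89% of all). The calls therefore describe reads above the library's genome-wide level, and none of them passed the adjusted test against promoters in general at this depth.

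**Figure D2:**
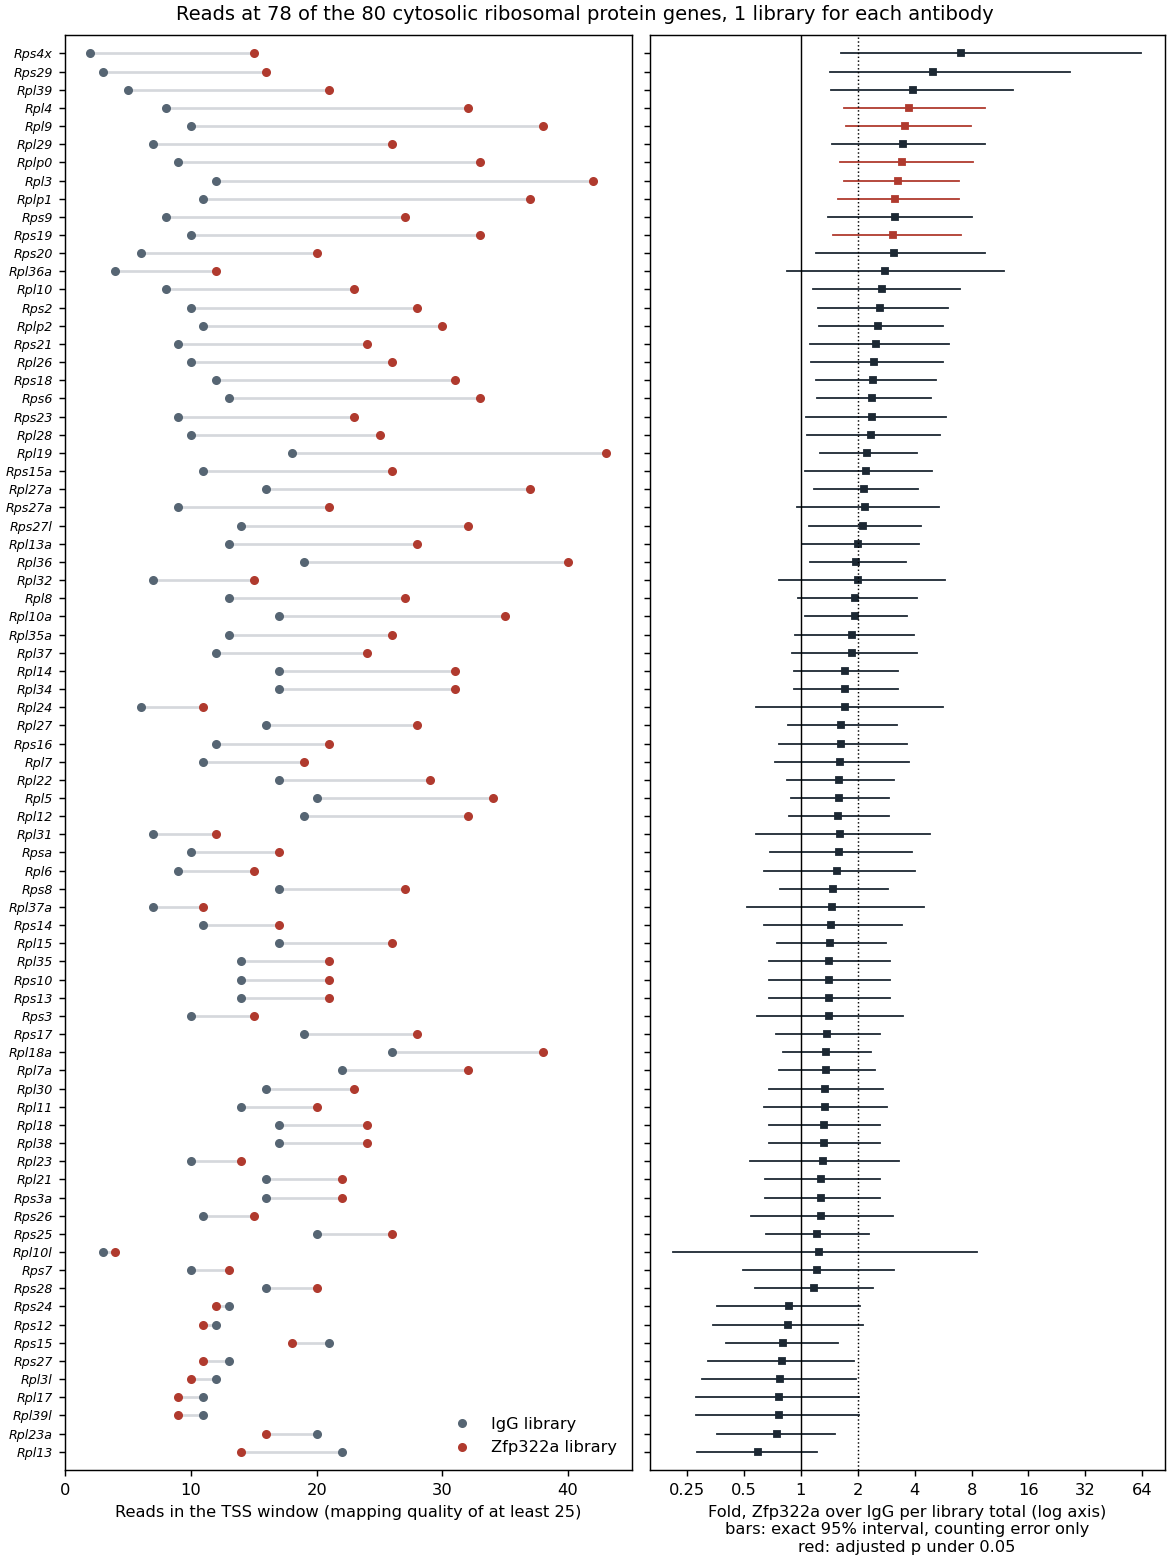
Reads in the TSS window of 78 of the 80 genes in the IgG (grey) and Zfp322a (red) library (left), and the fold with its exact 95% interval on a log axis (right), in order of the fold with 0.5 reads added. The 6 genes in red were called; intervals cross 1 for most genes in the lower part, where folds fall to 0.594 at *Rpl13*.

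The called members were *Rpl3*, *Rpl4*, *Rpl9*, *Rplp0*, *Rplp1* and *Rps19*, of which 5 belong to the large subunit. *Rpl3*, a protein of the peptidyl transferase region and the member with the highest peak, had 42 Zfp322a reads and 12 IgG reads, a fold of 3.27 (95% interval 1.69 to 6.82, exact test, adjusted p = 0.00633). *Rpl9*, a large-subunit protein gene with its TSS at position 65782682 of chromosome 5, had 38 and 10 reads, a fold of 3.55 (1.74 to 7.99, exact test, adjusted p = 0.00726). *Rpl4*, whose product lines the exit tunnel of the nascent chain, had 32 and 8 reads, a fold of 3.74 (1.69 to 9.39, exact test, adjusted p = 0.0147). *Rps19*, mutated in Diamond-Blackfan anaemia, was the small-subunit gene among them, with 33 and 10 reads, a fold of 3.08 (1.48 to 7.01, exact test, adjusted p = 0.0287). All 6 calls held when each gene was scaled by its own chromosome, where *Rps29* was called as well (4.64% of all genes). On that scale 29 members had a fold of at least 2 (22.8% of all) and 28 an unadjusted p under 0.05 (17.3% of all).

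The calls at *Rpl4* and *Rps19* were less firm than those at the other 4. The highest point of *Rpl4* lay at -676 bp from its TSS, inside *Zwilch*, a gene on the opposite strand whose first TSS is 283 bp from that of *Rpl4*, and within 500 bp of the *Rpl4* TSS the fold was 2.24 (exact test, adjusted p = 0.439). The reads at this promoter cannot be told apart between the genes. *Rpl9* likewise starts 54 bp from *Lias*, a lipoic acid synthase gene on the opposite strand. *Rps19* was no longer called when reads of any mapping quality were counted (fold 2.51, exact test, adjusted p = 0.0624), within 500 bp (fold 2.59, exact test, adjusted p = 0.133) or at the most downstream TSS (fold 2.55, exact test, adjusted p = 0.0945). Within 2000 bp of the TSS *Rpl4* (fold 2.59, exact test, adjusted p = 0.0556) and *Rpl3* (fold 2.08, exact test, adjusted p = 0.0741) were not called.

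The stalk of the large subunit, which recruits the translational GTPases, is built from *Rplp0*, *Rplp1* and *Rplp2*, and all of them lay above 2-fold. *Rplp0*, the base of the stalk, had 33 Zfp322a reads and 9 IgG reads, a fold of 3.43 (1.60 to 8.14, exact test, adjusted p = 0.0188). *Rplp1* had 37 and 11 reads, a fold of 3.14 (1.57 to 6.83, exact test, adjusted p = 0.0158). *Rplp2* had 30 and 11 reads, a fold of 2.55 (1.24 to 5.63, exact test, adjusted p = 0.0928) that did not pass the test. The highest point fell on the annotated TSS at *Rplp0* and *Rplp1*, with 18 and 17 extended reads against 3 and 3 in IgG, and 348 bp downstream of it at *Rplp2*, with 14 against 2.

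*Rpsa*, also known as the laminin receptor gene, had 17 and 10 reads and a fold of 1.59 (0.687 to 3.88), an interval that overlaps those of the stalk genes. Over the subunits, the large-subunit genes had a median fold of 1.65, with 16 of 47 at 2-fold or more and 5 called. The small-subunit genes had a median of 1.58, with 15 of 32 at 2-fold or more and 1 called. The folds ran from 0.594 to 3.92 in the large and from 0.790 to 7.01 in the small subunit, so that most of the range was shared, with *Rps29* and *Rps4x* above every large-subunit gene.

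The highest folds in the list, those of *Rps4x*, *Rps29* and *Rpl39*, rested on few IgG reads and were not called. The called *Rpl4* and *Rpl9* came next, with folds of 3.74 and 3.55. *Rps4x*, the X-linked gene of a small-subunit protein, had 15 Zfp322a and 2 IgG reads, a fold of 7.01 with an interval from 1.63 to 63.1 (exact test, adjusted p = 0.0506). *Rps29* had 16 and 3 reads, a fold of 4.98 (1.43 to 26.7, exact test, adjusted p = 0.0718). *Rpl39*, a small exit tunnel protein, had 21 and 5 reads, a fold of 3.92 (1.44 to 13.3, exact test, adjusted p = 0.0533). *Rpl29*, a heparin-binding large-subunit protein, missed the threshold with 26 and 7 reads, a fold of 3.47 (1.47 to 9.47, exact test, adjusted p = 0.0501). The wide intervals show how little 2 to 7 control reads can fix a ratio.

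All 4 members on the X chromosome had a fold of at least 2, with a median of 3.12, and so did 205 of the 385 tested X-linked genes (53.2%). Beside *Rps4x* and *Rpl39*, *Rpl10*, a late-joining protein near the peptidyl transferase centre, had 23 and 8 reads (fold 2.69), and *Rpl36a* had 12 and 4 reads (fold 2.80). The X chromosome as a whole held more Zfp322a than IgG reads, as given above, and the median over its tested genes was 1.97. Scaled by their own chromosome, the folds were 5.31 at *Rps4x*, 2.97 at *Rpl39*, 2.12 at *Rpl36a* and 2.04 at *Rpl10*, a median of 2.55, and none was called. Without the X chromosome, the median over 75 members was 1.58, with 27 at 2-fold or more and the 6 calls as before.

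Chromosome 7 carried 14 members, the most of any chromosome, and 9 of them were at 2-fold or more, against 23.9% of all tested genes. No member on chromosomes 1, 3, 8, 10, 14, 16 and 18, with 2 or 3 each, reached 2-fold. The median of the 14 was 2.14, against 1.31 over all tested genes of chromosome 7, whose whole-chromosome ratio was 1.04. The chromosome 7 members include *Rps19*, *Rplp2*, *Rpl28*, *Rpl27a* and *Rpl13a*. *Rpl13a*, the gene of a protein that also silences translation after interferon, had 28 and 13 reads (fold 2.01).

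A putative binding site was defined as by the criteria for peaks in the study, without its strand test: a highest Zfp322a height of at least 9 reads, each extended to 300 bp, and at least 3 times the IgG height at the same position, an IgG height of 0 being taken as 1. Such a site lay in the window of 30 of the 80 members (37.5%), against 14.6% of all protein-coding genes. Among genes that passed the minimum of 10 reads the shares were 38.0% and 20.5%. The gap lay in the height criterion: 53 members (66.3%) reached a height of 9 against 22.5% of all genes, and of those that reached it 56.6% of the members and 65.0% of all genes also met the 3-fold criterion. Read counts at members, in both libraries, were above those of the typical promoter, where the medians over tested genes were 15 and 10.

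Sites were present at 21 of 48 large-subunit and 9 of 32 small-subunit genes. The heights of all 80 members ran from 4 to 22 extended reads (median 10) for Zfp322a and from 0 to 10 (median 3) for IgG at the same position. *Rpl3* had the tallest site, with 22 against 3 reads, at a point in an intron 140 bp downstream of the TSS. *Rpl14* followed with 19 against 2, although its window count, 31 against 17 reads, gave a fold of 1.70 (0.914 to 3.28). *Rpl5*, named here for its height although it lies outside the naming rule, reached 18 reads but had 7 in IgG and so no site. Height and window count thus picked partly different genes: 10 of the 30 sites lay at members under 2-fold, and 11 members at 2-fold or more had no site.

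**Figure D3:**
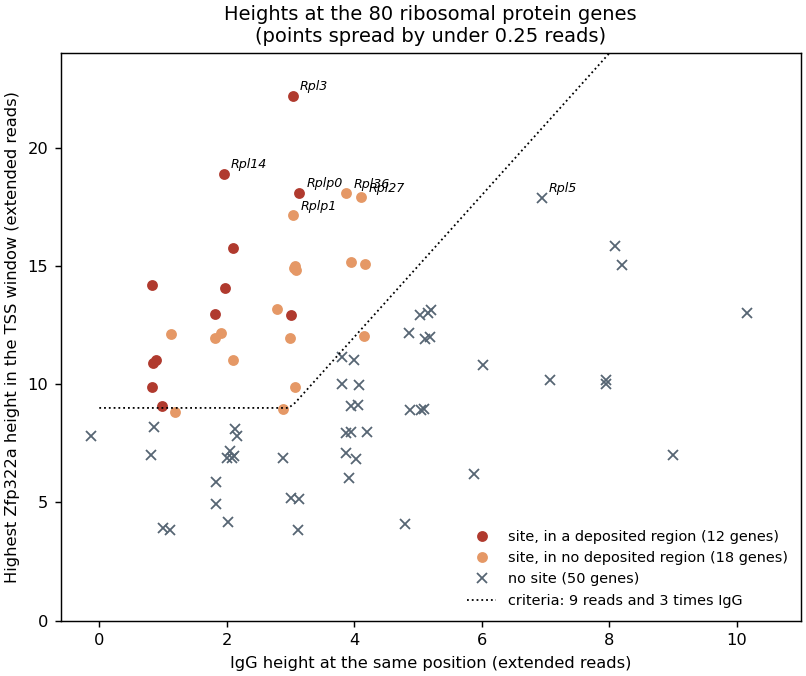
Highest Zfp322a height in the TSS window of each of the 80 genes (vertical axis, extended reads) against the IgG height at the same position (horizontal axis, extended reads), with the site criteria dotted. The 30 genes with a site lie on or above the line, from 9 to 22 reads, and the 12 in a deposited region have IgG heights of 1 to 3.

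The regions deposited by the authors from their own peak detection overlapped the windows of 12 of the 80 members (15.0%), against 3.09% of all protein-coding genes and 4.28% of the tested ones. These regions are fewer than the binding sites that the study counted, so the overlap describes the deposited list only. The 12 members included *Rpl3*, *Rpl4*, *Rpl14*, *Rpl29*, *Rpl34*, *Rplp0*, *Rplp2*, *Rps6*, *Rps20*, *Rps21* and *Rps23*, and each of the 12 also had a site. *Rps6*, the substrate of S6 kinase downstream of mTOR, had 33 and 13 reads, a fold of 2.37 (1.22 to 4.91), with a height of 16 against 2. *Rps23*, a protein of the decoding centre, had 23 and 9 reads, a fold of 2.39 (1.06 to 5.86), with 14 against 1. *Rps20* had 20 and 6 reads, a fold of 3.11 (1.21 to 9.48), with 10 against 1. *Rps21* reached the criterion exactly, at 9 against 1, with 24 and 9 reads (fold 2.49), and *Rpl34* had 31 and 17 reads (fold 1.70) with 13 against 3.

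Of the 6 called members, 5 had a site, and *Rps19* did not, with a height of 12 against 5. Sites outside the deposited regions were seen at 18 members. Those among them at 2-fold or more included *Rpl9* and *Rplp1*, *Rpl10*, *Rpl19* with 43 Zfp322a reads, the most of any member, against 18, *Rpl28* (25 and 10 reads), *Rpl27a* (37 and 16), *Rpl13a*, *Rps2* (28 and 10) and *Rps27l*, a p53-inducible relative of *Rps27* (32 and 14). The others had folds between 1.36 and 1.97, in the order *Rpl36*, *Rpl10a*, *Rpl35a*, *Rpl27*, *Rps16*, *Rpl7*, *Rpl12* and *Rpl7a*, and of these *Rpl36* had the most Zfp322a reads, 40 against 19.

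In 26 of the 30 members with a site, the highest point lay within 300 bp of the TSS. It fell in an untranslated region of the gene in 14, outside the gene in 9, in an intron in 5 and in an exon of a non-coding transcript in 2. At *Rpl7a*, which shares its promoter with *Med22*, a Mediator subunit gene on the opposite strand, the point lay at -406 bp, inside *Med22*. Counting 1 TSS per gene, 10 members had the TSS of another protein-coding gene in the window. Their median fold was 1.70, and that of the others 1.61. The others included *Rpl18* and *Rps27*, named here for their neighbours, with folds of 1.32 and 0.790. Transcripts of the protein-coding genes *Sphk2* and *Rab13* started 250 and 44 bp from their TSSs, so the order of these medians depends on how neighbours are counted. The 30 members that host snoRNA genes in their introns had a median of 1.56, and the 50 that do not had 1.68.

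Summed over the members, the excess was highest just after the TSS. In the 500 bp downstream there were 864 Zfp322a and 392 IgG reads, a fold of 2.06, and in the 500 bp upstream 538 and 278, a fold of 1.81. The corresponding folds over all protein-coding genes were 1.54 and 1.5. From 1000 to 2000 bp downstream the fold at members was 1.09, close to the 1.12 of all genes. Over the same distance upstream it was 0.908 (245 and 252 reads), below the 1.1 of all genes. Within the peak, the 100-bp bins from 0 to 200 bp had folds of 2.35 and 2.38. The medians moved with the window: within 500 bp of the TSS the median fold of the members was 1.98, beside 1.49 for all genes, and within 2000 bp it was 1.46, beside 1.26.

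**Figure D4:**
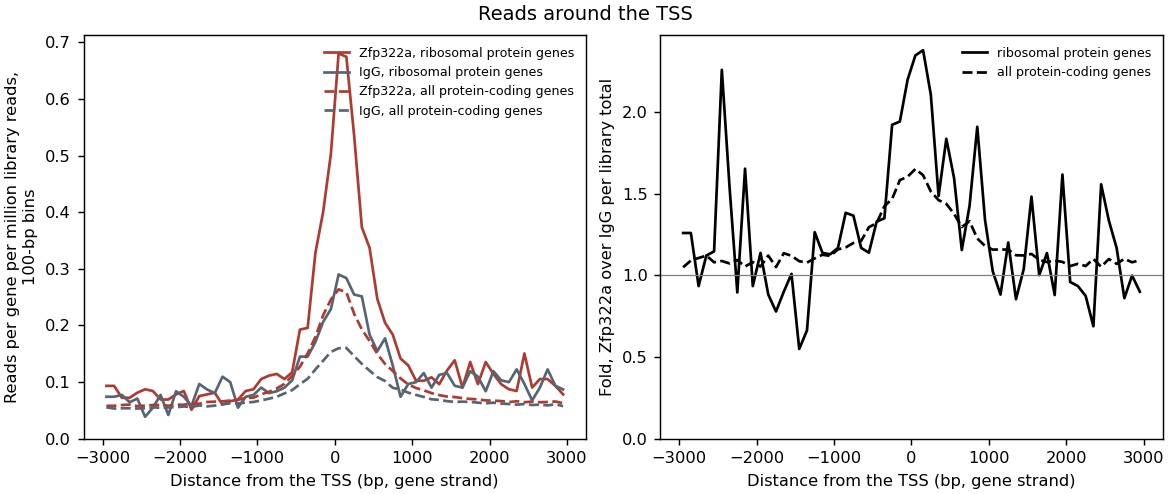
Left, reads per gene, scaled by library total, in 100-bp bins by distance from the TSS (bp) for the Zfp322a (red) and IgG (grey) library, at the 80 members (solid) and all 22359 protein-coding genes (dashed). Right, the fold in the same bins, highest at members from 0 to 200 bp (2.35 and 2.38); bins beyond 1000 bp hold few reads at the members and scatter around 1.

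Processed pseudogenes resemble spliced transcripts, so a read from a coding exon of these genes can fit several places. Of the reads in member exons, 56.8% (Zfp322a) and 55.0% (IgG) fell under the mapping quality of 25, whereas in their TSS windows 7.75% and 6.85% did, fewer than the 12.2% and 15.5% over all protein-coding windows. The promoter counts thus lost few reads to the pseudogenes, with exceptions. In the libraries together, 65.0% of the reads fell under the cut-off at *Rpl10l*, 51.2% at *Rps29*, 40.0% at *Rpl37a* (named for this value) and 21.1% at *Rplp1*. With all reads the fold of *Rps29* was 2.8 and that of *Rplp1* 2.36.

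The windows around pseudogenes did not show the excess of the parent promoters. At the 5′ ends of 162 annotated pseudogenes named after ribosomal protein genes, windows of the same size had a median of 3 Zfp322a and 2 IgG reads, and their summed fold was 0.956. Of these, 27 had at least 10 reads, with a median fold of 1.1 and 4 at 2-fold or more. Within the pseudogene bodies 76.9% of Zfp322a and 83.3% of IgG reads fell under the cut-off, and the 96 and 52 reads left gave a fold of 1.72, beside 1.24 with all reads. Within the parent genes the summed fold was 1.18 in coding exons and 1.28 in introns, both under the 1.75 of the TSS windows counted on the same basis.

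There were 9 of 79 members with fewer Zfp322a than IgG reads per library total, against 4156 of the 15983 tested genes. None of these differences at members passed the test. The lowest fold was that of *Rpl13*, a large-subunit protein gene, with 14 Zfp322a and 22 IgG reads, 0.594 (0.281 to 1.22), and 0.782 when scaled by chromosome 8. *Rpl23a*, whose product sits at the exit of the nascent chain tunnel, had 16 and 20 reads, a fold of 0.747 (0.362 to 1.52). *Rpl17*, an exit tunnel protein gene, had 9 and 11 reads, a fold of 0.764 (0.280 to 2.03). All of these intervals include 1.

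The paralogs known for expression in particular tissues had few Zfp322a reads. This was not particular to them: members outside that list, such as *Rpl17* (9 and 11 reads) and *Rps27* (11 and 13), had similar counts. *Rpl3l*, the paralog of *Rpl3* in heart and skeletal muscle, had 10 and 12 reads, a fold of 0.778 (0.301 to 1.97), where *Rpl3* itself had 42 and 12. *Rpl39l*, the paralog of *Rpl39* known for its expression in testis, had 9 and 11 reads, a fold of 0.764 (0.280 to 2.03), where *Rpl39* had 21 and 5. *Rpl10l*, the testis paralog of *Rpl10*, had the fewest counted reads of any member, but 65.0% of its reads fell under the mapping quality of 25. With reads of any mapping quality it reached the minimum of 10, with a fold of 1.60. None of these paralogs had a site. The intervals of *Rpl3l* and *Rpl39l* overlapped those of *Rpl3* and *Rpl39*. The ratio of observed to expected CpG in the window was 0.244 at *Rpl3l*, 0.394 at *Rpl39l* and 0.658 at *Rpl10l*, beside medians of 0.686 over the members and 0.583 over all tested genes. The median GC content of the window was 52.6% over the members and 53.7% over all tested genes.

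The remaining 38 members, which the naming rule does not pick, had folds from 0.790 to 3.15. Of these, 6 were at 2-fold or more, 4 were under 1 and 4 had an interval above 1. That none of the 38 was called follows from the naming rule, which picks every called member. The rule also picks every member with a site or a deposited region and those with the highest or lowest folds. The range and counts of the 38 are therefore shaped by this selection and cannot be set against all genes.

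Ribosomal proteins outside the symbol rule gave mixed values. Among the 6 of a list drawn up for this purpose, *Rpl22l1*, a paralog of *Rpl22*, was called, with 27 and 7 reads, a fold of 3.60 (1.53 to 9.80, exact test, adjusted p = 0.0366). The other 5 were not. Among them, *Fau*, a ubiquitin-like fusion gene, had 31 and 17 reads, *Gnb2l1*, the gene of the scaffold protein Rack1, 26 and 22, *Rpl7l1* 20 and 12, and *Rpl36al* 19 and 17. The median fold of the 6 was 1.32.

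Other genes with TOP mRNAs, mainly translation factors, had a higher median fold. The 16 genes of that list had a median fold of 2.62, with 11 at 2-fold or more (68.8%, against 23.9% of all tested genes), 3 called (18.8%, against 4.82%) and 2 in a deposited region (12.5%, against 3.09% of all genes). The site share of that list was 8 of 16, against 14.6% of all genes. *Eef1a1*, the elongation factor that delivers tRNA, had 49 and 16 reads, a fold of 2.86 (1.60 to 5.39, exact test, adjusted p = 0.00803), and *Npm1*, a nucleolar chaperone, had 36 and 12 reads, a fold of 2.80 (1.43 to 5.92, exact test, adjusted p = 0.0323). The third was *Tpt1*, the gene of translationally controlled tumour protein, with 23 and 5 reads, a fold of 4.30 (1.60 to 14.5, exact test, adjusted p = 0.0284). Among 56 ribosome biogenesis genes the median was 1.71, with 23 at 2-fold or more (41.1%), 7 called (12.5%), 23 with a site (41.1%) and 5 in a deposited region (8.93%). Their share with a site was thus no lower than the 37.5% of the members. *Nop56*, a box C/D snoRNP protein gene, led these with 64 and 11 reads, a fold of 5.44 (2.84 to 11.4, exact test, adjusted p = 1.33e-06). The 76 mitochondrial ribosomal protein genes had a median of 1.49, with 19 of the 76 at 2-fold or more, 2 called (2.63%), 21 with a site (27.6%) and 2 in a deposited region (2.63%), so that the shares called and in deposited regions lay under those of all genes. The differences between these lists were not tested, and the lists were chosen with earlier results of these data known.

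The promoters were also searched for short motifs of promoter-binding factors. From 250 bases before to 49 after the TSS, on either strand, the ETS core CCGGAAG was present at 32.5% of members, 11.1% of all protein-coding genes and 14.5% of the tested ones. It was present at 10 of the 30 members with a site and 16 of the 50 without. The YY1 core AANATGGC was present at 12.5% of members, 6.68% of all genes and 7.21% of tested genes, and CTCTTTCC at 7.50%, 3.08% and 3.06%. For the other motifs the direction in this stretch turned with the genes used for comparison. The GC box GGGCGG was present at 40 of the 80 members, 44.8% of all genes and 59.3% of tested genes. TATAAA was present at 11.3%, 13.4% and 7.55%, and the NRF1 core GCGCATGC at 3.75%, 3.38% and 4.53%. The GC box was present at 19 of the 30 members with a site and 21 of the 50 without, and runs of at least 8 pyrimidines at 9 and 14 of these. Within 1000 bp of the TSS, members lay above both comparisons for these motifs. The shares at members, all genes and tested genes were 92.5%, 66.1% and 83.9% for the GC box and 61.3%, 59.4% and 50.3% for TATAAA. For the NRF1 core they were 15.0%, 7.01% and 8.90%, with 8 of the 30 members with a site and 4 of the 50 without. A motif match describes the letters only.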

How the data were processed

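Chromatin of E14 cells precipitated with anti-ZNF322 antibody or IgG was sequenced on the Genome Analyzer IIx, 1 library each, as 36-bp reads. The submitters' processing notes name CASAVA 1.4, BWA and Partek 6.6, and the build is mm9. The authors deposited each mapped read with its mapping quality score and, separately, the reads of 925 numbered regions from their peak detection, 754 distinct intervals. Within a library, reads with the same 5′ end and strand were absent.

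Reads with a score of at least 25 were placed 150 bp downstream of their 5′ end and counted within 1000 bp of the most upstream TSS of each gene's CCDS transcripts. Genes with at least 10 reads were tested on counts with the exact conditional binomial test, with exact 95% intervals and Benjamini-Hochberg adjustment, using scipy 1.17.1, pandas 2.3.3, numpy 2.4.6 and matplotlib 3.10.9 under Python 3.11.15. Depth was 5187475 reads for Zfp322a and 4843481 for IgG. The test was checked on simulated data. The sequences came from the mm9 genome.

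Members, gene lists and settings were chosen with earlier results of these data known. Named members had a site, a deposited region or a call, were on the X chromosome, were stalk, *Rpsa* or tissue-restricted genes, had 1 of the 5 highest or lowest folds, or failed the read minimum. Other windows, TSSs, scalings, read minimums, mapping qualities and site criteria were tried. A mapping quality of 37 and the highest IgG position within 300 bp were added after seeing the data. *Rps4l*, on the list of paralogs, had no gene of that symbol in the annotation used here. The microarray data of the study were not analysed here. A few members and listed genes are counted in the totals but are not reported here by name.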

Additional observations from a re-analysis of the deposited data

How the results depend on the processing

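The count of 6 called members moved to 0 when reads were scaled by all protein-coding TSS windows or within twentieths of GC content. Among genes with at least 20 reads it moved to 10 of 73 members (8.63% of all such genes). Under the other alternatives it lay between 5 and 8, where 2.98% to 5.34% of all genes were called. *Rpl9*, *Rplp0* and *Rplp1* were called under each alternative but those 2 scalings. The 31 members at 2-fold or more (23.9% of all tested genes) became 12 under the scaling by TSS windows (8.68% of all) and 12 within GC twentieths (8.89%). With windows of 2000 bp on either side they became 19 (15.6% of all). The median fold of 1.61 became 1.14 and 1.12 under those scalings, 1.98 within 500 bp and 1.46 within 2000 bp. The count of 30 members with a putative binding site (14.6% of all genes) became 8 of the 80 with a minimal fold of 9 (3.83% of all). Under the other criteria it lay between 20 and 31, where the share of all genes ran from 7.71% to 15.3%. These include the highest IgG position within 300 bp, a criterion chosen after seeing the data (22 members, 7.82% of all). The 12 members in deposited regions were 12 under each window tried, where the share of all genes ran from 2.98% to 3.18%. No named member that was called reversed its direction. Under either of those scalings the excess is measured against promoters in place of the genome, so the general excess at promoters is removed by construction; other causes of these changes were not tested. No paired analysis was possible because each antibody has 1 library. At a median of 36 reads per window, folds under 3.27 were mostly not detectable by the test.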
